A study of Gallus gallus with 4 samples.

Results

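Genes of macrophages and dendritic cells were followed in the trachea of chickens kept in air with or without hydrogen sulfide. The rule names 9 genes: growth factor receptors, lineage factors and effector genes of phagocytes. Of these, 8 were analysed, FLT3, SPI1, IRF8, CYBB, MPEG1, MARCO, LY86 and CD83, among 26296 genes in the table of read counts. CSF1R, the receptor for the macrophage growth factor CSF1, was not analysed here. All 8 passed the filter on low counts, as did 16545 genes in all. The genes were chosen by name, with their read counts and fold changes between exposed and control libraries already known, so that difference is described below and not tested.

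RNA was sequenced from the trachea of chickens (Gallus gallus) 42 days old, with 2 libraries per group. The exposed birds lived in a chamber with hydrogen sulfide, a toxic gas of poultry houses. From week 0 to week 3 the air held 3.5 to 4.5 mg/kg, and from week 4 to week 6 it held 19.5 to 20.5 mg/kg. No gas was added to the control chamber, and the labels give no strain, sex or genotype. Each group had its own chamber, so the effects of gas and of chamber cannot be told apart. How many birds stand behind a library is not stated, nor whether a group's libraries are separate birds. Sex-linked genes, given below, bear on the second point. P-values set the difference between the groups against the spread between these libraries, estimated with information from all genes. They do not take in the spread between chambers.

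Conventional dendritic cells and some macrophages, but not all, share an origin in bone marrow progenitors that carry the receptors FLT3 and CSF1R. The ETS-family factor SPI1, also called PU.1, drives the myeloid programme, and IRF8 acts with it in monocytes and dendritic cells. In mammals both factors also work in B cells. In the airway these phagocytes take up particles and microbes, kill them in the phagosome and present their antigens to T cells.

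Exposed replicates 1 and 2 had total counts of 22283320 and 22706119 reads, and the control replicates had 17400644 and 16899066. Levels are given in CPM, reads scaled to a common library size by TMM normalization, and are compared between libraries. Transcript lengths were not used, so levels of different genes are not comparable as numbers of transcripts. The most abundant gene of a list is that with the highest mean CPM, and summed levels are sums of CPM. The libraries of each group differed in sex-linked genes. The 19 tested genes of the W chromosome summed to 486 CPM in exposed replicate 1 and 487 CPM in control replicate 2, but to 149 CPM in exposed replicate 2 and 135 CPM in control replicate 1. Genes of Z, 619 in all, ran the other way. Their median log2 deviation from the gene mean was -0.25 and -0.29 in the first 2 of these libraries, and 0.30 and 0.29 in the others. Each group thus held 1 library of each kind, so its 2 libraries were not taken from the same bird. Sex-linked differences are part of the spread within each group. None of the 8 genes lies on Z or W in the reference table. Of markers for the labelled tissue, 26 of airway epithelium and 23 of fibroblasts, cartilage, vessels and muscle passed the filter, and each had a mean of at least 8.43 CPM.

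Of the 8 genes, 6 were lower in both exposed libraries than in both controls. Over all tested genes 17.2% were lower in this way, and nothing is read from the comparison because the choice of the 8 used it. FLT3 and CYBB stood farthest apart, and in the fit the controls were 3.38-fold and 2.69-fold above the exposed libraries. The same folds were 2.02 for IRF8, 1.96 for MPEG1 and 1.91 for SPI1. CD83 was lower by a smaller step, while MARCO and LY86 overlapped between the groups. In a piece of tissue, fewer cells of a type and less RNA per cell cannot be told apart.

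**Figure D1:**
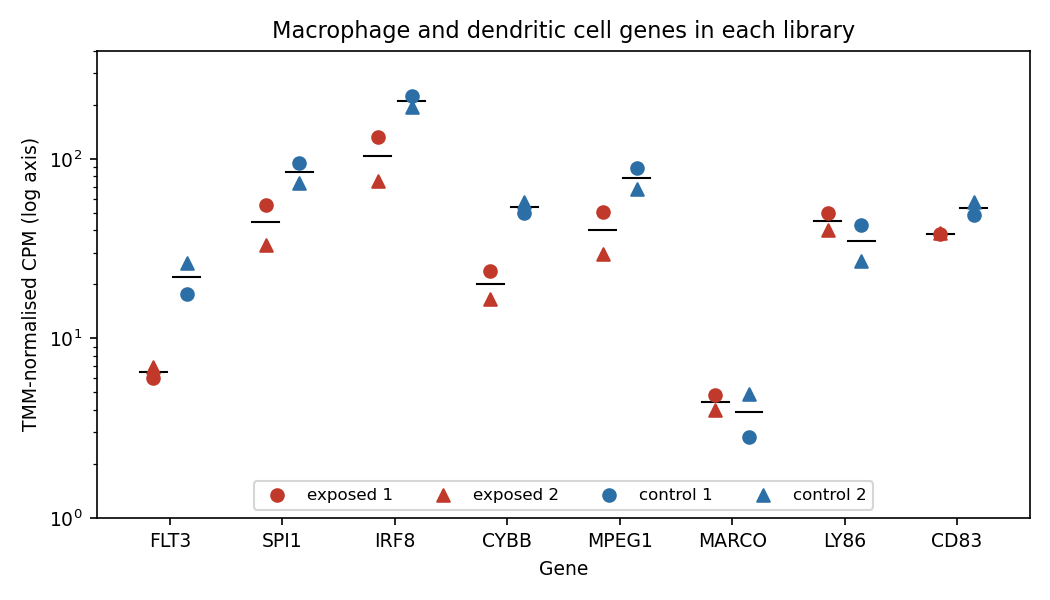
TMM-normalised CPM (log axis) of the 8 genes in each library. Red points are exposed and blue points control libraries, circles are replicate 1 and triangles replicate 2, and bars are group means of 2 libraries. For 6 genes both red points lie under both blue points, and for MARCO and LY86 they overlap.

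Among the receptors, FLT3 binds the ligand that sustains dendritic cell progenitors and conventional dendritic cells. It stood at 6.02 and 6.92 CPM in the exposed libraries and at 17.6 and 26.1 CPM in the controls. The lower control was 2.54 times the higher exposed library. The means were 6.47 ± 0.637 and 21.9 ± 6.03 CPM (SD, n = 2 each), with a fitted log2 fold change, exposed over control, of -1.76 (SE 0.29). These levels rest on 130 and 153 reads against 323 and 443 reads. The 95% exact Poisson intervals, which cover counting error only, reached up to 8.11 CPM in the exposed libraries and down to 15.7 CPM in the controls.

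SPI1 stood at 55.4 and 33.2 CPM in the exposed libraries and at 95.2 and 73.8 CPM in the controls. The means were 44.3 ± 15.7 and 84.5 ± 15.1 CPM (SD, n = 2 each; log2 fold change -0.93, SE 0.31). IRF8 stood at 132 and 75.5 CPM against 224 and 195 CPM, with means of 104 ± 40.1 and 210 ± 20.7 CPM (SD, n = 2 each; log2 fold change -1.01, SE 0.31). For both factors the groups did not overlap, and replicate 1 was above replicate 2 within each group. The gap between the exposed replicates was 0.74 for SPI1 and 0.81 for IRF8 on the log2 scale, against a median absolute gap of 0.27 over all tested genes. Between the control replicates it was 0.37 and 0.20, against a median of 0.34. The labels do not match replicate numbers between the groups.

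Without exposed replicate 1 the log2 fold changes were -1.34 for SPI1 and -1.47 for IRF8. Without exposed replicate 2 they were -0.61 and -0.67. The direction of both held, and the size depended on which exposed library was used.

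Among the effectors, CYBB encodes the catalytic subunit of the phagocyte NADPH oxidase, which makes superoxide in the phagosome. It stood at 23.6 and 16.5 CPM in the exposed libraries and at 50.2 and 57.5 CPM in the controls, so that the lower control was 2.12 times the higher exposed library. The means were 20.0 ± 5.06 and 53.8 ± 5.21 CPM (SD, n = 2 each; log2 fold change -1.43, SE 0.24). Leaving out a library gave log2 fold changes from -1.71 to -1.19.

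MPEG1 encodes perforin-2, a pore-forming protein of macrophages that attacks engulfed bacteria. It stood at 50.7 and 29.6 CPM against 89.3 and 68.0 CPM, with means of 40.2 ± 14.9 and 78.6 ± 15.01 CPM (SD, n = 2 each; log2 fold change -0.97, SE 0.32). Like SPI1 and IRF8, it was higher in replicate 1 than in replicate 2 of each group. Its log2 fold change was -1.41 without exposed replicate 1 and -0.63 without exposed replicate 2.

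MARCO, a collagenous scavenger receptor of macrophages that binds bacteria and inhaled particles, stood at 4.82 and 3.98 CPM in the exposed libraries and at 2.84 and 4.90 CPM in the controls. The groups overlapped, and the log2 fold change was 0.19 (SE 0.40). It had 52 to 104 reads per library, and the 95% counting intervals ran from 2.12 to 3.72 CPM in control replicate 1 and from 3.90 to 6.07 CPM in control replicate 2. The control libraries thus differed by more than counting error. The log2 fold change was 0.62 without control replicate 2 and -0.15 without control replicate 1, so its direction depended on that choice.

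LY86, or MD-1, is the secreted partner of the Toll-like receptor homologue CD180. It stood at 50.2 and 40.3 CPM in the exposed libraries and at 42.9 and 27.0 CPM in the controls. The groups overlapped, with a log2 fold change of 0.37 (SE 0.28), which was 0.75 without control replicate 1 and 0.06 without control replicate 2. CD83, a membrane protein of mature dendritic cells and activated lymphocytes, stood at 38.3 and 38.4 CPM against 48.4 and 57.5 CPM. Its exposed libraries were nearly equal and both were below the controls (log2 fold change -0.46, SE 0.17).

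Read ratios between these genes within a library do not depend on sequencing depth or on normalization. SPI1 had 1.09 and 1.12 reads for each read of MPEG1 after exposure, while the controls had 1.07 and 1.08. The highest of these ratios was 1.05 times the lowest, although the SPI1 level itself differed 2.87-fold between libraries. The 95% exact binomial intervals of the 4 ratios all held the values from 1.01 to 1.14, so the ratios agree within sampling noise. SPI1 had 0.419 and 0.440 reads per read of IRF8 after exposure, while the controls had 0.424 and 0.378, a span of 1.16 times.

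Over all 28 pairs of the 8 genes, the span between the highest and the lowest ratio had a median of 2.84 and reached 8.08 for FLT3 and LY86. Against SPI1, 9138 genes had at least 200 reads in every library and could be ranked by this span. MPEG1 was at rank 1, with the smallest span, IRF8 at rank 4, CYBB at rank 260, CD83 at 1085 and LY86 at 5996. The median span over all these genes was 3.00. From the side of MPEG1, SPI1 was at rank 1 by the same span of 1.05, and IRF8 at rank 3. These ranks describe 4 libraries and include the difference between the groups. That difference was known when the 8 genes were chosen, so the ranks are description only. Spans this small also occurred with genes outside the 8: CD83 and the ETS-family gene FLI1 had 1.03, and LY86 and PALMD 1.04. Each of these is the smallest span out of 9138 genes, so they do not show how often a close match arises.

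Other genes with steady ratios to SPI1 or IRF8 were named after their values were seen. The gene with the steadiest ratio to IRF8 was LOC416633, which the reference table names CIITA, the master regulator of major histocompatibility complex class II genes, with a span of 1.08. For SPI1, TAPBP, the tapasin gene of class I peptide loading, was at rank 2 with a span of 1.10, followed by DCLK3 at rank 3 and RAB9B at rank 5. The steadiest partner of CYBB was KPNA2, a nuclear import receptor, with a span of 1.16, while IRF8 was at rank 49. FLT3 and MARCO had too few reads to be ranked. Of the 6 genes that could be, the one nearest to CD83 was SPI1, at rank 7632, and the one nearest to LY86 was CD83, at rank 8132.

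**Figure D2:**
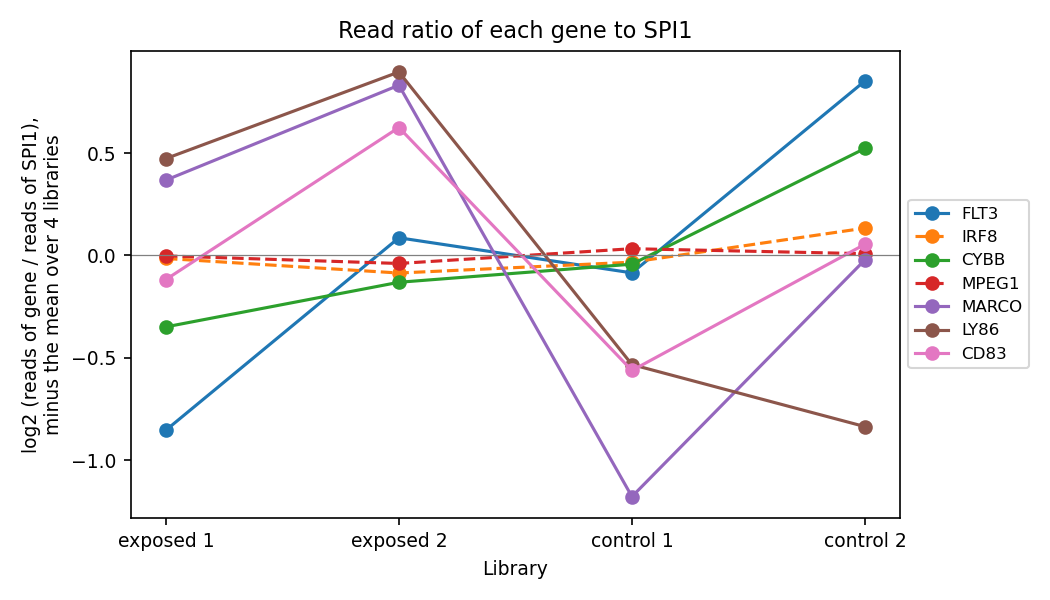
Log2 ratio of the reads of each gene to the reads of SPI1 in the 4 libraries, after subtracting the gene's mean. Dashed lines mark MPEG1 and IRF8, which stay near 0 in all libraries, while LY86 and MARCO are higher in the exposed libraries than in the controls.

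FLT3 and CYBB did not follow SPI1 in the same way. FLT3 had 0.109 and 0.208 reads per read of SPI1 after exposure, while the controls had 0.185 and 0.354, and the groups overlapped. CYBB had 0.426 and 0.496 against 0.527 and 0.780, with the exposed libraries lower. SPI1 had 1.10 and 0.824 reads per read of LY86 after exposure, while the controls had 2.22 and 2.74, so that LY86 was higher relative to SPI1 after exposure.

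PTPRC, or CD45, the tyrosine phosphatase carried by nearly all leukocytes, stood at 276 and 238 CPM in the exposed libraries and at 307 and 479 CPM in the controls (edgeR adjusted p = 0.986 for a log2 fold change of -0.61, SE 0.28). Set against its reads, FLT3 and CYBB remained lower in both exposed libraries. FLT3 had 0.0218 and 0.0291 reads per PTPRC read against 0.0573 and 0.0545, and CYBB had 0.0854 and 0.0692 against 0.163 and 0.120. SPI1, IRF8, MPEG1 and CD83 overlapped between the groups on this scale. MARCO was higher in both exposed libraries, at 0.0174 and 0.0167 against 0.00923 and 0.0102, and so was LY86, at 0.181 and 0.169 against 0.140 and 0.0563.

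The median over the 8 genes of the log2 difference, exposed minus control, was -0.40 relative to PTPRC and -0.33 relative to the mean of 17 leukocyte genes. Without control replicate 1 the value relative to PTPRC was 0.11, and without control replicate 2 it was -0.90. The control libraries differ in PTPRC, and the direction of this median depended on which of them was used.

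**Figure D3:**
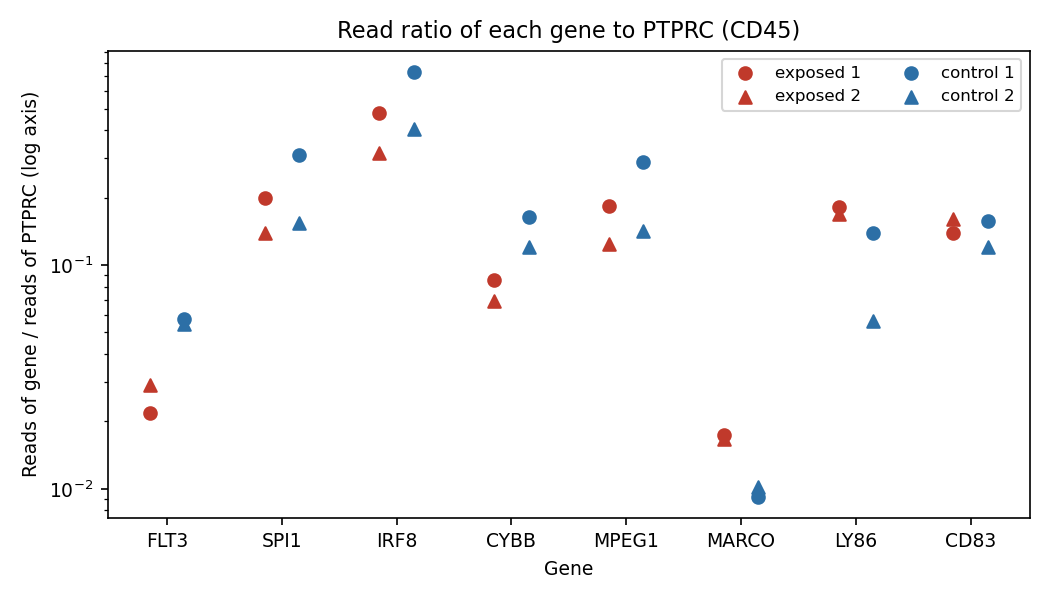
Reads of each gene per read of PTPRC (log axis) in each library. Red points are exposed and blue points control libraries, circles are replicate 1 and triangles replicate 2. FLT3 and CYBB lie lower in both exposed libraries, MARCO and LY86 lie higher, and the other 4 genes overlap.

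Other genes of these pathways, and markers of other cell types that a piece of trachea can hold, were taken from 14 lists. The edgeR quasi-likelihood test over all genes called none of their members. Over all 16545 genes it called 0 at an adjusted p under 0.05 (0% of genes; smallest adjusted p = 0.596), with 904 genes, or 5.46%, at an unadjusted p under 0.05. DESeq2 called 132 genes, or 0.798%, of which 82 were lower and 50 higher. The median log2 fold change over all tested genes was 0.01, and the 8 genes had a median of -0.95. For any 1 gene, exact permutation of 2 and 2 libraries gives no p below 0.333.

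For growth factors and receptors of myeloid cells the median log2 fold change was -0.12 over 7 tested genes (-0.29 to 0.03 with a library left out). Of these, 2 were lower and 1 was higher without overlap, where over all tested genes 17.2% were lower and 15.3% higher in this way. CSF1, a ligand of CSF1R, stood at 11.0 and 11.2 CPM in the exposed libraries and at 12.4 and 12.9 CPM in the controls. IL34, the other ligand of that receptor, stood at 8.15 and 9.32 against 11.2 and 7.32 CPM and overlapped. The largest difference was that of LOC418666, which the reference table names CSF2RA, lower without overlap (log2 fold change -0.64, SE 0.29). On the log2 scale 6 values were negative and 1 was positive. The positive value was that of KITLG, the stem cell factor (0.53, SE 0.22, edgeR adjusted p = 0.943).

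Of 23 lineage transcription factors, 6 were lower and 1 higher without overlap (17.2% and 15.3% over all tested genes). The median on the log2 scale was -0.20. The 3 largest differences were those of SPIC, IRF5 and IRF4. SPIC, an ETS factor related to SPI1 that mammals need for red pulp macrophages, stood at 12.5 and 12.3 CPM against 27.3 and 34.4 CPM (edgeR adjusted p = 0.596 for a log2 fold change of -1.32, SE 0.21). IRF4, which acts in plasma cells and in a subset of dendritic cells, stood at 47.2 and 58.9 against 108 and 134 CPM (log2 fold change -1.19, SE 0.20). SPIC and IRF4 were the DESeq2 calls of this list, both lower (0.798% of all tested genes were called). For RUNX1, its most abundant member, the value was 0.23 (SE 0.26).

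The partners of CYBB in the phagocyte NADPH oxidase described here had log2 fold changes from -0.70 to 0.08, against -1.43 for CYBB, and whether the genes differ in this was not tested. LOC100859840, which the reference table names CYBA, the membrane partner of CYBB, stood at 16.3 and 12.6 CPM after exposure and at 25.3 and 18.1 CPM in the controls (log2 fold change -0.59, SE 0.27). The cytosolic subunit NCF4 and the GTPase RAC2 were at -0.39 (SE 0.26) and -0.70 (SE 0.18), also without overlap. NCF1, another cytosolic subunit, overlapped, at 0.08 (SE 0.26). The median over the 12 tested genes of the oxidase family was -0.01 (-0.33 to 0.12 with a library left out). Of these genes, 3 were lower and 1 higher without overlap (17.2% and 15.3% over all tested genes). NOX4, a relative of CYBB found mainly outside phagocytes, was the higher one, at 84.5 and 69.5 CPM against 47.7 and 67.8 CPM (log2 fold change 0.41, SE 0.24).

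CD180, which LY86 binds, stood at 1.20 and 1.49 CPM in the exposed libraries and at 2.84 and 1.06 CPM in the controls. TLR4, the receptor for bacterial lipopolysaccharide, stood at 23.2 and 19.5 against 21.3 and 20.8 CPM (log2 fold change 0.02, SE 0.19). Its partner LY96, or MD-2, stood at 20.5 and 6.83 against 21.9 and 23.1 CPM. TLR1A, which senses bacterial lipopeptides together with other Toll-like receptors, had the lowest value of the list (-1.04, SE 0.22; edgeR adjusted p = 0.734). TLR7, a sensor of single-stranded RNA, had -0.92 (SE 0.31). Of the 15 tested genes of this list, 4 were lower and 0 higher without overlap (17.2% and 15.3% over all tested genes). Their median was -0.20. That median was 0.22 without control replicate 1.

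For dendritic cell genes the median was -0.58 on the log2 scale over 24 tested members. With a library left out it lay between -0.84 and -0.36. Of these members, 10 were lower and 2 higher without overlap (17.2% and 15.3% over all tested genes). The others, CADM1 and ICOSLG as the higher ones aside, overlapped between the groups. The 3 largest differences were those of XCR1, LOC416633 and CD86, so they do not stand for the whole list. XCR1, the chemokine receptor of cross-presenting dendritic cells, stood at 0.926 and 1.81 CPM in the exposed libraries and at 5.40 and 6.20 CPM in the controls (log2 fold change -2.08, SE 0.46), on 20 and 40 reads against 99 and 105 reads. Its adjusted p was 0.754 by edgeR and 0.0408 by DESeq2. XCR1 was the 1 gene of the list that DESeq2 called (0.798% of all tested genes were called). LOC416633, the CIITA gene, stood at 71.4 and 37.8 against 121 and 105 CPM (log2 fold change -1.05, SE 0.34), and the costimulatory molecule CD86 at 4.26 and 2.44 against 7.53 and 6.20 CPM. The most abundant member was CD74, the invariant chain of class II molecules, at -0.64 (SE 0.28).

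Scavenger and phagocytic receptors had a median of -0.05 over 26 tested genes. Of these, 7 were lower and 3 higher without overlap (17.2% and 15.3% over all tested genes). C1QB, a chain of the complement component C1q made by macrophages, had the largest difference (log2 fold change -1.07, SE 0.37). The complement receptor C3AR1 had -0.93 (SE 0.30) and the leukocyte integrin chain ITGB2 -0.91 (SE 0.19). Lysosome and macrophage effector genes had a median of -0.01 over 23 tested genes, with 6 lower and 3 higher without overlap. MMP7, a matrix metalloproteinase, had the largest difference, and it rested on 1 library, with 310 and 1.45 CPM against 57.4 and 26.0 CPM. Cathepsin C, CTSC, stood at 224 and 172 CPM against 365 and 348 CPM (log2 fold change -0.85, SE 0.20). LRP1 and PSAP, the most abundant members of these lists, were at 0.26 (SE 0.36) and -0.02 (SE 0.24). DESeq2 called no gene of either list, nor of the growth factor, oxidase and Toll-like receptor lists.

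**Figure D4:**
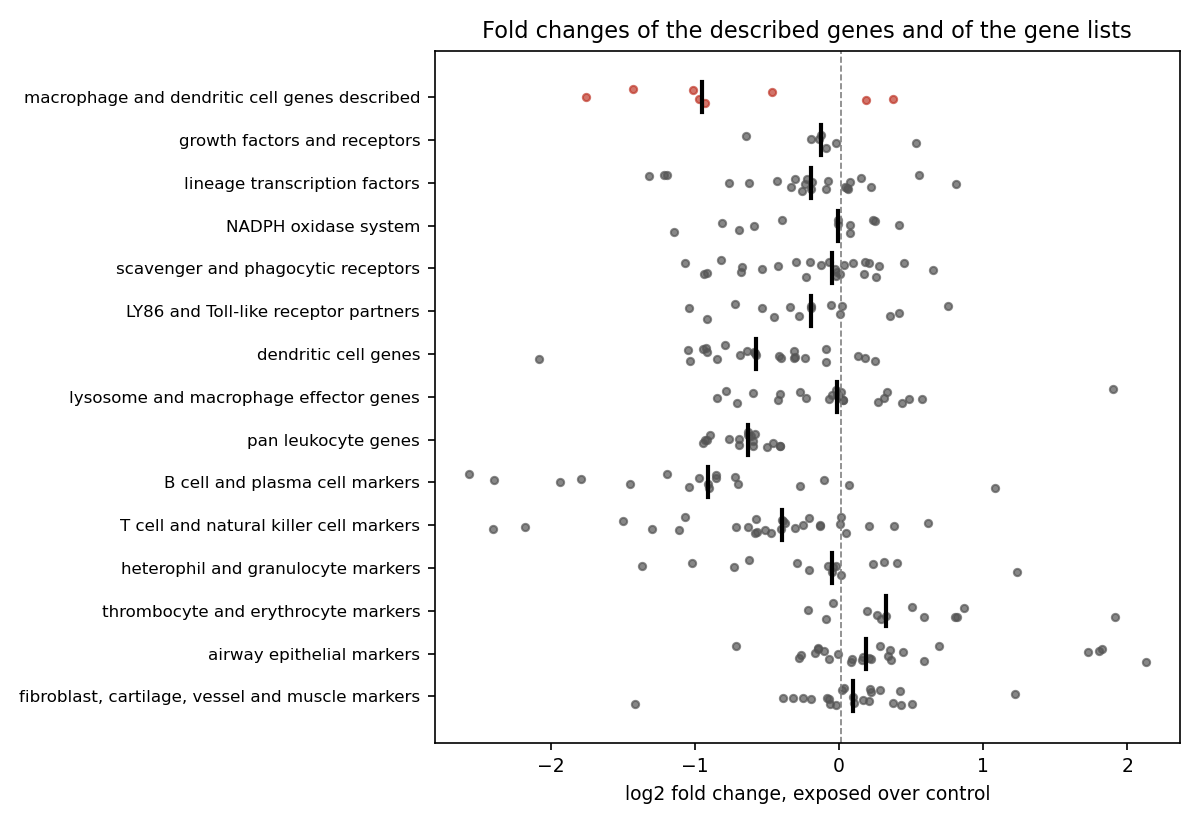
Log2 fold change, exposed over control, of the 8 genes (red) and of the tested members of each list (grey). Black bars are medians and the dashed line is the median of all tested genes. The medians of the dendritic cell, pan leukocyte and B cell lists lie below -0.5, and those of the scavenger receptor, oxidase and lysosome lists lie near 0.

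Markers of other leukocytes are given beside these values, and their part in the values of the 8 genes was not tested. edgeR called none of them. DESeq2 called 6 B cell and plasma cell markers, 2 T cell and natural killer cell markers and 1 pan leukocyte gene, all lower after exposure. Its calls made up 0.798% of all tested genes. Over all tested genes, 17.2% were lower and 15.3% higher without overlap, beside which the counts of these lists stand. All 17 tested pan leukocyte genes had a negative log2 fold change, with a median of -0.63, and 16 were lower without overlap. Their summed level was 1223 to 1445 CPM in the exposed libraries and 1954 to 2441 CPM in the controls. Of 18 B cell and plasma cell markers, 15 were lower without overlap, with a median of -0.90. Their summed level was 2370 to 2804 CPM against 11517 to 13206 CPM. Most of this sum came from IGLL1 and from the joining chain gene IGJ (log2 fold change -2.57, SE 0.33). IGJ stood at 955 and 760 against 5840 and 4338 CPM, and IGLL1 at 1370 and 1095 against 6670 and 6254 CPM. Of 28 T cell and natural killer cell markers, 12 were lower and 1 higher without overlap, with a median of -0.40 and summed levels of 436 to 530 against 482 to 758 CPM. With a library left out that median lay between -0.70 and -0.15. Heterophil and granulocyte markers, from the avian counterpart of neutrophils, had a median of -0.05 over 15 genes, with 3 lower and 2 higher without overlap and summed levels of 765 to 1060 against 552 to 1209 CPM. No matched marker of these 4 lists was at 0 in all libraries, and some genes are in more than 1 list. Outside the leukocytes, the medians were 0.19 over 26 airway epithelial markers, 0.10 over 23 markers of fibroblasts, cartilage, vessels and muscle, and 0.33 over 13 markers of thrombocytes and erythrocytes, where HBE was at 0. With a library left out they lay between -0.21 and 0.34, between -0.19 and 0.29, and between 0.08 and 0.70. Of the 26 epithelial markers, 8 were higher and 1 lower without overlap, and DESeq2 called 4, all higher. Among these were the surfactant protein gene SFTPA1 (log2 fold change 2.13, SE 0.18) and the secretory cell gene AGR2 (1.83, SE 0.27). Their part in the values of the 8 genes was not tested either. SPI1, IRF8 and CD83 are also expressed by B cells in mammals, and counts from whole tissue do not assign reads to a cell type.

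The genes whose pattern over the 4 libraries was nearest to the mean of the 8 were CYTH4, FBP1, DAPP1, DUSP12 and RRM1, at Euclidean distances of 0.07 to 0.09 in centred log2 CPM. The 8 genes themselves lay farther from their mean, from 0.42 for SPI1 to 1.25 for LY86. A match to the mean is thus not a match to any 1 of them. CYTH4, an exchange factor for ARF GTPases, stood at 23.3 and 18.6 CPM in the exposed libraries and at 35.8 and 36.8 CPM in the controls. DAPP1, an adaptor of phosphoinositide signalling in B cells, stood at 24.1 and 17.5 against 34.5 and 33.0 CPM. FBP1 encodes a gluconeogenesis enzyme and RRM1 a subunit of ribonucleotide reductase, and both were lower in both exposed libraries. Among the 8, the nearest pair was SPI1 and MPEG1, at a distance of 0.05. IRF8 was nearest to MPEG1, at 0.15, and CYBB to IRF8, at 0.51. FLT3 was nearest to CYBB, at 0.63, and MARCO to CD83, at 0.80. LY86 had the largest distance to its nearest gene, MARCO, at 1.03.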

How the data were processed

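The authors deposited raw read counts per gene, 1 column per library, without normalization. The submitters' processing notes name HISAT2, an aligner. Its version, and any counter, build, annotation or strand setting, are not stated. The table holds whole numbers, and 16640 of 26296 gene names were found in a RefSeq gene table of assembly GRCg7b, used for names and for sex-linked genes. No coordinates are given, and a planned search of promoters was not run.

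Genes were filtered with filterByExpr, normalized by TMM and tested with glmQLFit and glmQLFTest of edgeR 4.0.16 in R 4.3.3, as a two-sided test without covariates (2 residual degrees of freedom). P-values were adjusted by Benjamini-Hochberg over 16545 genes. Standard errors are the absolute log2 fold change over the square root of F. DESeq2 1.42.0 and limma 3.58.1 (voom) were alternatives, as were other scalings and filters and leaving out each library. The main edgeR fit, DESeq2 and limma-voom were tested on simulated counts, and the other settings were not. No library was a copy of another (chi-square per degree of freedom 64.7 to 112).

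The members and the 14 lists were chosen with earlier results of these data known. Of 324 list entries, 273 matched by symbol and 8 by gene ID through the reference table. All tested genes of the growth factor, oxidase and Toll-like receptor lists could be named. Of the other lists, the rule took the 3 largest absolute log2 fold changes among genes of at least 1 CPM and the most abundant gene. CADM1 and ICOSLG were named outside this rule, after their values were seen. For likeness it took the 5 genes of at least 5 CPM, with no LOC symbol, nearest to the mean centred log2 CPM (prior count 2) of the 8 genes. Values are uncertain for genes that overlap others or have near-identical copies. An item that the lists hold is not reported here.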

Additional observations from a re-analysis of the deposited data

How the results depend on the processing

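edgeR called 0 genes under other scalings, other filters, the replicate block, limma-voom in its place, and with any library left out; DESeq2 called 132 genes, of which 15 were in the lists outside the 8 genes, against 0 in the edgeR fit. The median log2 fold change of the 8 genes was -0.95; it ran from -1.04 to -0.94 under the alternatives that keep all libraries, and from -1.37 to -0.62 with a library left out. Relative to PTPRC it was -0.40, and -0.90 to 0.11 with a library left out. The replicate block, with the replicate number as a term, gave -0.99 and 0 calls. The labels do not say that replicate numbers pair the libraries. Over 16545 genes the differences between replicates 1 and 2 of the 2 groups had a correlation of -0.002. Sex-linked levels of the replicates ran opposite ways in the 2 groups, so this value cannot decide whether libraries were paired. Of 56 log2 fold changes of the 8 genes under alternatives that keep all libraries, 0 moved by over 1 SD of the replicates. With a library left out 7 of 32 did, and 1, that of MARCO without control replicate 1, changed sign. Of 154 list medians under alternatives, 16 moved by over 1 SD and 14 changed sign. A library left out makes its group 1 library, assumed to vary like the other group. MARCO had the fewest reads of the 8 genes, 52 to 104 per library.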
